A study of Mus musculus with 6 samples.

Results

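The genes described here encode the subunits and assembly factors of respiratory complex III, complex IV and the ATP synthase, as measured in hearts of mice that over-express fatty acid synthase (FASN), the enzyme that makes palmitate. They were taken by name: every gene whose symbol in the probe annotation starts with Uqcr, with Atp5, or with Cox and a digit. These were 50 of the 18193 genes that had a probe set (a group of array probes read as 1 value) with a single symbol, and each gene was read on its brightest such probe set. The 50 genes had 100 single-symbol probe sets, and 32 of them had more than 1. Cox14 shared its probe set with a second symbol and was not named. A probe set was tested where its mean over the arrays reached the median of all of them, and 49 members passed, while Cox7b2 did not.

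Hearts of male mice labelled C57BL/6J were hybridized to Affymetrix arrays in 3 groups of 2 arrays. The first group was a line with high cardiac FASN, the second a line with low cardiac FASN, and the third age-matched B6 control mice, whose age the labels do not give. In both lines FASN was driven by the alpha-MHC promoter, whose activity is restricted to heart muscle. All 6 samples, controls included, bear a tissue label that reads transgenic heart, so the groups follow the titles. Each FASN level was 1 line, so the level and any other feature of a line cannot be told apart. No label tells whether 1 heart or several stand behind the arrays of a group, so p-values here reflect array-to-array spread, which may be technical. In whole tissue, fewer cells of a type and less RNA per cell cannot be told apart.

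Complex III takes electrons from ubiquinol and passes them to cytochrome c, complex IV (cytochrome c oxidase) passes them on to oxygen, and both pump protons out of the mitochondrial matrix. The ATP synthase lets the protons back through its membrane part, Fo, and uses that flow to make ATP in its head, F1. Heart muscle depends on this chain for nearly all of its ATP, and several complex IV subunits exist in a form typical of heart and skeletal muscle and another form found in most tissues. The genes read here are all encoded in the nucleus, and most of their transcripts are among the abundant ones of the heart.

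Fasn itself read 2268 and 2104 in the high FASN line, 462 and 481 in the low FASN line, and 213 and 187 in B6 controls, so the labels and the target gene had the same order. Signals have no absolute unit, and precision is limited by the small number of arrays. Pearson's r over the 22519 probe sets tested, which are no independent replicates, lay between 0.987 and 0.990 within groups and between 0.969 and 0.977 across them. All 6 columns had a trimmed mean of 300.002, so the arrays had been scaled to a common mean before deposit. Differences below are on the log2(signal + 16) scale, on which changes of dim genes come out too small, and a gene was called where limma's Benjamini-Hochberg adjusted p over all probe sets tested was under 0.05.

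In the high FASN line, 12 of the 49 tested members were called higher than in B6 control and 1 was called lower. Over all probe sets tested, 8.18% were called higher and 6.18% lower in that comparison. The members called higher were Uqcrb and Uqcrh of complex III, Cox5b, Cox6a1, Cox6a2, Cox6c, Cox7a2 and Cox8a of complex IV, and Atp5a1, Atp5c1, Atp5g3 and Atp5h of the ATP synthase. The member called lower was the assembly factor Cox11. The median difference over the members was 0.14, against 0.12 over other genes of equal brightness (for each member, the median over non-member genes within 0.25 of its mean log2 signal) and 0.04 over all probe sets tested. Of the 49 members, 26 lay above the value of their equally bright genes and 23 below. The 12 higher calls became 7 with quantile normalization, 4 with median centring, 22 with cyclic loess and 2 with hybridization control scaling, 1 without limma's variance trend, and 3 to 31 with 1 array left out.

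In the low FASN line, 2 members were called higher than in B6 control, Atp5g2 and Cox7c, and 8 were called lower. Over all probe sets tested, 13.5% were called higher and 10.8% lower. The members called lower were Uqcrc2, Cox4i1, Atp5d, Atp5e and Atp5k and the assembly factors Cox10, Cox11 and Cox17. The median difference was -0.12 under the deposited scaling, against -0.11 over equally bright genes and 0.02 over all probe sets tested; it was 0.01 under cyclic loess and 0.12 when the arrays were scaled to their hybridization controls. The 8 lower calls became 4 under each of quantile, median and loess scaling, 0 under hybridization control scaling and without the variance trend, and 2 to 24 with 1 array left out. The 2 control arrays served both comparisons, which are therefore not independent.

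Set directly against each other, 31 of 49 members were called higher in the high FASN line than in the low FASN line and 2 were called lower, Atp5g2 and Cox7c. The difference was above 0 in 42 members and below 0 in 7. Over all probe sets tested, 9.69% were called higher and 8.87% lower. The median difference over the members was 0.25, against 0.22 over equally bright genes and 0.01 over all probe sets tested. Only 28 of the 49 members lay above their equally bright genes, by a median over all members of 0.03. Scaling to the hybridization controls turned the members' median to -0.07, with 0 members higher and 6 lower (limma; the deposited values gave 31 and 2).

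**Figure D1:**
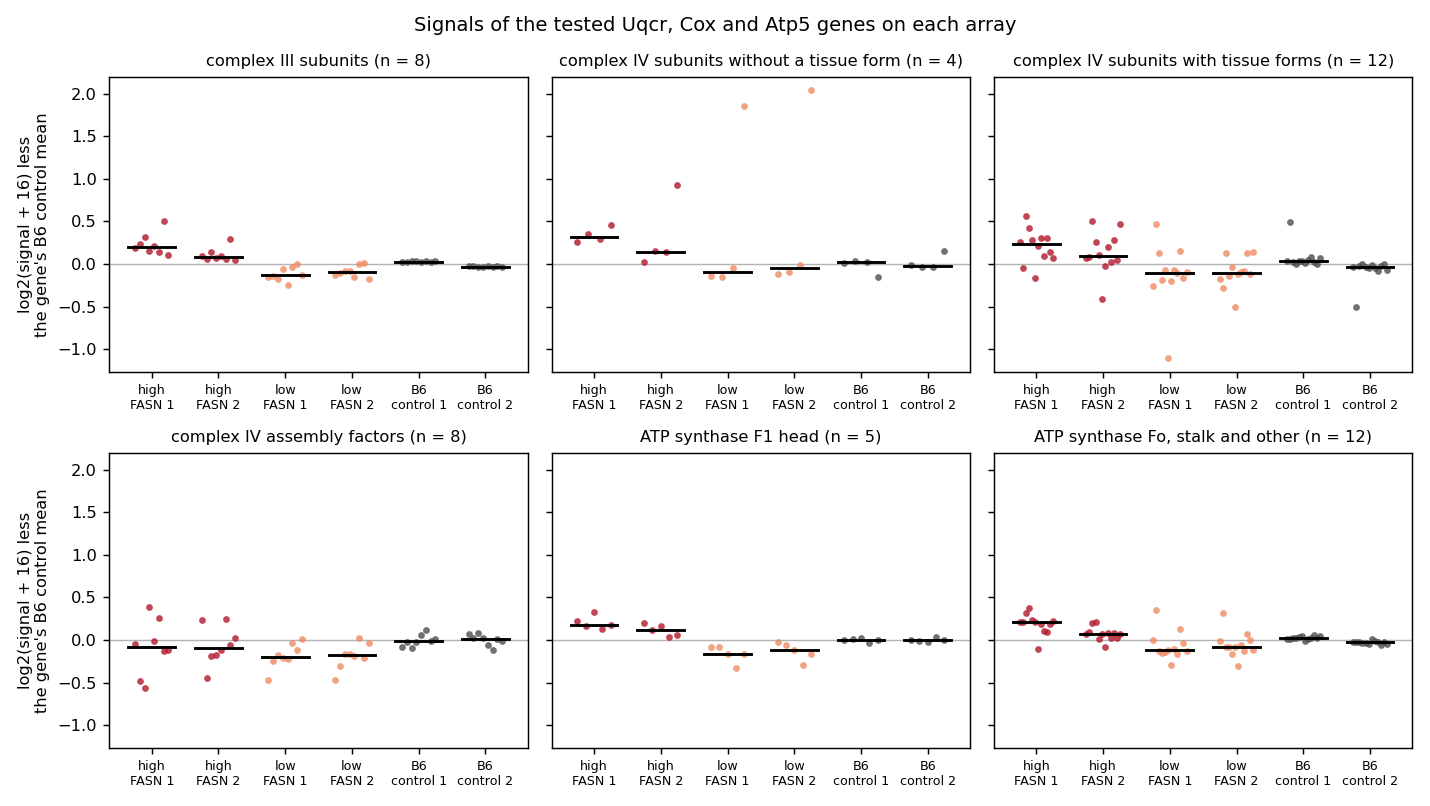
Each point is 1 member on 1 array, as its log2(signal + 16) less that gene's mean over the 2 B6 control arrays; black bars are medians over the genes of a panel. The panels group the 49 tested members by role. In 5 of the panels the medians are above 0 on both high FASN arrays and below 0 on both low FASN arrays, while the assembly factors lie below 0 in both lines. The points near 2 in the low FASN line are Cox7c.

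The plot of the members by array shows that the 2 high FASN arrays were unequal. The members' median against the control mean was 0.21 on the first high FASN array and 0.08 on the second. It was -0.13 and -0.09 on the low FASN arrays, and 0.02 and -0.02 on the control arrays. Equally bright genes followed the same pattern, with 0.17 and 0.08 in the high FASN line, -0.12 and -0.10 in the low FASN line, and 0.02 and -0.02 in controls. The 18 probe sets for the hybridization controls, bacterial transcripts added to every sample, had medians of 0.17 and 0.02, then -0.27 and -0.11, then -0.01 and 0.01 in the same order of arrays. The part of the hybridization step in the members' shift was not tested.

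Complex III was represented by 8 Uqcr genes, all tested. In the high FASN line 2 were called higher and 0 lower, and in the low FASN line 0 were called higher and 1 lower (limma). Between the lines 7 of the 8 were called higher in the high FASN line, with a median difference of 0.27 over the 8, against 0.22 over equally bright genes. The shares of all probe sets called higher and lower were 8.18% and 6.18%, 13.5% and 10.8%, and 9.69% and 8.87% in the same order. Among non-member genes with a mean log2 signal of 13 or more, 47.6% were called higher between the lines. The calls of the Uqcr genes rest on the deposited scaling. Uqcrh encodes the hinge protein that helps cytochrome c dock with cytochrome c1. It read 22762 and 19737 in the high FASN line, 16048 and 16148 in the low FASN line, and 16277 and 15845 in B6 controls. The high FASN arrays lay above all 4 others, while the low FASN and control arrays overlapped. Uqcrh was 0.40 ± 0.06 (SE) higher in the high FASN line than in control (limma, adjusted p = 0.00358), 1.32-fold, and stayed called under each of the 4 other scalings, between 0.26 and 0.39. In the low FASN line its difference was 0.003 (limma, adjusted p = 0.976). A second Uqcrh probe set gave 0.17 in the high FASN line (limma, adjusted p = 0.059), so the size rests on the brighter one.

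The other complex III subunits varied less. Uqcrc1, a core subunit on the matrix side, read 17241 and 16316 in the high FASN line, 14840 and 14594 in the low FASN line, and 15855 and 15135 in controls. The 3 groups did not overlap, but neither line passed the test against control (limma, adjusted p = 0.163 for high FASN and 0.321 for low FASN). Uqcrfs1, the Rieske iron-sulfur protein that takes the first electron from ubiquinol, read 16654 and 15793 in the high FASN line, 14809 and 15192 in the low FASN line, and 15544 and 14722 in controls. Its low FASN and control arrays overlapped, and it was not called in any comparison. Uqcrb, which lies at the ubiquinone site, was 0.23 higher in the high FASN line (limma, adjusted p = 0.0436), and Uqcrc2, the other core subunit, fell by 0.20 in the low FASN line (limma, adjusted p = 0.0289). The Uqcrb call stood under 1 of the 4 other scalings and the Uqcrc2 call under 0.

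The complex IV subunits were 4 genes without a tissue form and 13 with one. Of the 4 (Cox5a, Cox5b, Cox6c and Cox7c), Cox5b and Cox6c were called higher in the high FASN line, by 0.25 and 0.22, and Cox5a was not called against control in either line. Both Cox5a and Cox5b face the matrix, and Cox5b binds zinc. Cox7c stood apart from the other members. It read 85.3 and 124 in the high FASN line, 251 and 286 in the low FASN line, and 50.1 and 65.8 in controls, so the low FASN arrays lay above all the others. The difference between the low FASN line and control was 1.95 ± 0.21 (SE), 3.86-fold (limma, adjusted p = 0.000242), and the high FASN line was lower than the low FASN line by -1.25 (limma, adjusted p = 0.0042). It was called in the low FASN line under all 19 alternatives, between 1.35 and 2.18. This probe set is dim, and a second Cox7c probe set, which averaged 11.3, 42.0 and 18.5 in the high FASN, low FASN and control arrays, was too dim to be tested. Cox7c is known as an abundant transcript of the heart, and which part or form of it these dim probe sets read was not checked here.

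The 13 complex IV genes with tissue forms include 3 pairs in which 1 form is typical of heart and skeletal muscle (Cox6a2, Cox7a1, Cox8b) and the other is found in most tissues (Cox6a1, Cox7a2, Cox8a). In the high FASN line 4 of the 12 tested were called higher and 0 lower, and of these 3 were the common forms. In the low FASN line 0 were called higher and 1, Cox4i1, lower. Of all probe sets tested, 8.18% were called higher and 6.18% lower for high FASN, and 13.5% and 10.8% for low FASN. The median difference over the tested forms was 0.18 for high FASN and -0.09 for low FASN, against 0.13 and -0.10 over equally bright genes. Cox6a1 was the only one of the 12 higher calls that stood under all 19 alternatives run. It read 17908 and 17213 in the high FASN line, 13186 and 13266 in the low FASN line, and 12260 and 11906 in controls. The 3 groups did not overlap, and high FASN was far above both. The difference between high FASN and control was 0.54 ± 0.05 (SE), 1.45-fold (limma, adjusted p = 0.0001). Over the alternatives it lay between 0.42 and 0.57. A second Cox6a1 probe set rose in both lines, by 0.38 in the high FASN line (limma, adjusted p = 0.00252) and 0.31 in the low FASN line (limma, adjusted p = 0.00428).

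The muscle form Cox6a2 read 26338 and 23474 in the high FASN line, 17204 and 17806 in the low FASN line, and 19610 and 19671 in controls. The high FASN arrays were above control and the low FASN arrays below it, without overlap. It was called higher in the high FASN line by 0.34 (limma, adjusted p = 0.00487), while -0.17 in the low FASN line did not pass (limma, adjusted p = 0.0671). Cox8a, the common form of the smallest subunit, read 4463 and 4371 in the high FASN line, 3990 and 3934 in the low FASN line, and 3658 and 3541 in controls. All 3 groups were apart, in the order of FASN level. Its difference from control was 0.29 in the high FASN line (limma, adjusted p = 0.00482) and 0.14 in the low FASN line (limma, adjusted p = 0.0764). Its second tested probe set was called in both lines, at 0.36 and 0.20; the mean over its 3 probe sets, 1 of them dim, gave -0.03 for high FASN.

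Cox8b, the muscle form, read 21755 and 20314 in the high FASN line, 17666 and 18137 in the low FASN line, and 19713 and 19712 in controls. It followed the family's direction without passing the test against control in either line, at 0.09 for high FASN and -0.14 for low FASN (limma, adjusted p = 0.25 and 0.0687). Cox7a2, the common form, read 29693 and 27588 in the high FASN line, 22902 and 22581 in the low FASN line, and 24842 and 23224 in controls. It was called higher in the high FASN line by 0.25 (limma, adjusted p = 0.0137). Its muscle partner Cox7a1 read 24846 and 21066 in the high FASN line, 18609 and 19744 in the low FASN line, and 21644 and 21215 in controls, with high FASN overlapping control, and was not called against control. Cox7a1 and Cox8b are also known from brown fat.

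Because both members of a pair are read on the same array, the log2 difference between them does not depend on how an array's mean was set, although it can move with brightness-dependent scaling. For Cox6a2 less Cox6a1 it was 0.56 and 0.45 in the high FASN line, 0.38 and 0.42 in the low FASN line, and 0.68 and 0.72 in controls. Both lines lay below control, by -0.20 for high FASN and -0.30 for low FASN. For Cox8b less Cox8a it was 2.28 and 2.21 in the high FASN line, 2.14 and 2.20 in the low FASN line, and 2.43 and 2.47 in controls. Again both lines lay below control, by -0.20 and -0.28 for high and low FASN. For Cox7a1 less Cox7a2 it was -0.26 and -0.39 in the high FASN line, -0.30 and -0.19 in the low FASN line, and -0.20 and -0.13 in controls, so the low FASN arrays overlapped control. These ratios set 1 form against the other and do not show which of them changed. An exact two-sided permutation test of 2 arrays against 2 cannot go below 0.333, and no other test of the ratios was run.

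**Figure D2:**
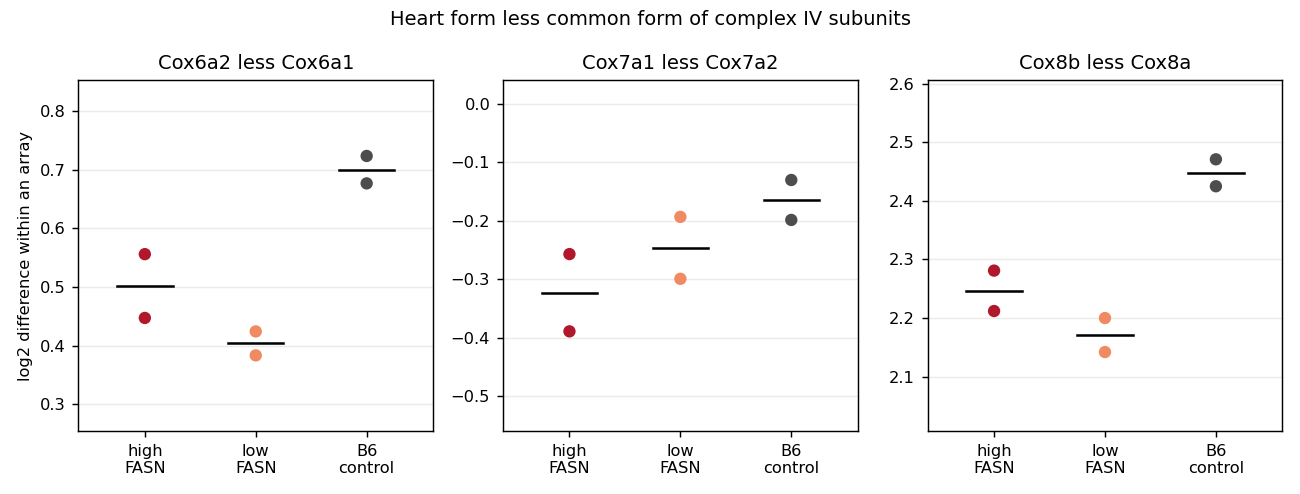
Each point is 1 array, as the log2 signal of the muscle form less that of the common form on the same array, on the brightest probe set of each gene, with black bars for group means; the 3 vertical axes span the same 0.6 log2 units. Cox6a2 less Cox6a1 and Cox8b less Cox8a are lower on all 4 transgenic arrays than on both controls, while Cox7a1 less Cox7a2 overlaps between the low FASN line and control.

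The plot of these within-array differences was drawn from the brightest probe set of each gene. Over the 4 combinations of tested probe sets for Cox6a2 and Cox6a1, and under the deposited, quantile and cyclic loess scalings, the difference from control stayed negative, between -0.24 and -0.04 for high FASN and between -0.47 and -0.10 for low FASN. With the second Cox6a1 probe set, however, the high FASN arrays overlapped control under the deposited and the loess scaling, at -0.04, in 4 of the 12 cases. For Cox8b and Cox8a, with 2 combinations, it stayed between -0.46 and -0.20 for high FASN and between -0.34 and -0.20 for low FASN. The Cox7a1 and Cox7a2 difference in the low FASN line reached 0.02 with the second Cox7a2 probe set, so its direction was not settled. The choice of these 3 pairs was made with earlier results known.

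Promoter windows are shown for forms of 2 of these pairs and for Atp5g2, a member whose call stood under all 4 other scalings. RefSeq promoter windows (GRCm38.p6, from 250 bases before to 50 after the annotated start) were held for 38 of the 50 genes, in 42 windows, and 4 short words were searched on both strands in them and in all 32851 windows. Capitals mark the matched words, which are the core of the NRF1 site, GCGCATGC, and the ETS word CCGGAAGT (ACTTCCGG on the other strand). The windows lie on the minus strand at chr5:115348909-115349208 for Cox6a1, chr19:7217567-7217866 for Cox8a, chr7:140900397-140900696 for Cox8b and chr15:102670998-102671297 for Atp5g2, which is described further on.
Cox6a1: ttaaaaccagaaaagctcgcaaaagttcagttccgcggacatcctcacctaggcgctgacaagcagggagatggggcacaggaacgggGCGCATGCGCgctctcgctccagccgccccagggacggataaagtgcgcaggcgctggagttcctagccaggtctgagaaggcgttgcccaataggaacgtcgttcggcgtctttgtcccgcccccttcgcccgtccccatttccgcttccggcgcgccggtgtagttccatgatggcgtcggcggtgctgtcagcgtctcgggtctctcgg
Cox8a: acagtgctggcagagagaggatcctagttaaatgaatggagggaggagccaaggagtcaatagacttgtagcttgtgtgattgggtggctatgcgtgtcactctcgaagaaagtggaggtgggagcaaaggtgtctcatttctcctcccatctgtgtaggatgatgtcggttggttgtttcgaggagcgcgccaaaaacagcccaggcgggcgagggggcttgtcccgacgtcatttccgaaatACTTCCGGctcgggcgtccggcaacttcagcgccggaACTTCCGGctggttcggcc
Cox8b: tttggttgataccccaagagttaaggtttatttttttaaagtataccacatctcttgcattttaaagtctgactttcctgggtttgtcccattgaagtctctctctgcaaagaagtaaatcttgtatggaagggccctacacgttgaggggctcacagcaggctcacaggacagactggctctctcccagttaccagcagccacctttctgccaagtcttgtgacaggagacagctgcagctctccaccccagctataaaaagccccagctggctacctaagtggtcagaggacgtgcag
Atp5g2: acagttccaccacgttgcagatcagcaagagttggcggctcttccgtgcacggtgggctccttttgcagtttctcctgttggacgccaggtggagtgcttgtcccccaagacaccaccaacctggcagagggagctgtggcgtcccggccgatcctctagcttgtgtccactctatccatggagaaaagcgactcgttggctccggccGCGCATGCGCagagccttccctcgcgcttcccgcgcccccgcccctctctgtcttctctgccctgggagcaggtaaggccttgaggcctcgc
The Cox6a1 and Atp5g2 windows each hold a palindromic run in which the NRF1 word is read on both strands with overlap, the Cox8a window holds the ETS word at 2 places, and the Cox8b window holds none of the 4 words. The windows of the third pair, Cox7a1 and Cox7a2, also hold none of them and are not printed; Cox6a2 was not among the windows.

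The NRF1 word was in 6 of the 42 member windows, 14.3%, against 2.71% of all windows. The ETS word was in 7, 16.7% against 3.89%, and the YY1 word AAGATGGC in 5, 11.9% against 2.75%. The ERR word CAAGGTCA was in 2, 4.76% against 1.56%. NRF1, the ETS factor GABP, YY1 and the estrogen-related receptors are known regulators of nuclear genes for mitochondrial proteins. A match describes letters in a window and is neither a binding site nor a cause, and a window without a match says only that these letters are not in it.

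Against control, Cox4i1 was the only one of the remaining tested forms of complex IV subunits to be called on its brightest probe set. Cox4i1, the common form of the subunit at which ATP acts on the enzyme, read 28494 and 25038 in the high FASN line, 19788 and 20994 in the low FASN line, and 24258 and 23224 in controls. The low FASN arrays were below all others and the high FASN arrays above, and only the low FASN difference, -0.22, was called (limma, adjusted p = 0.0359). That fall turned to 0.01 under the hybridization control scaling. Its lung form Cox4i2 was dim and overlapped among groups, at 55.3 and 62.3, 86.1 and 44.9, and 88.3 and 36.3 in high FASN, low FASN and control arrays. Cox6b1 read 30263 and 26712 in the high FASN line, 23787 and 24253 in the low FASN line, and 25502 and 24271 in controls, and was called only between the lines, by 0.24 (limma, adjusted p = 0.0241).

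Of the forms known from testis, Cox6b2 and Cox7b2 were dim and Cox8c was brighter. Cox6b2 read 62.7 and 50.6 in the high FASN line, 25.1 and 46.6 in the low FASN line, and 75 and 70 in controls, and its difference of -0.80 in the low FASN line did not pass (limma, adjusted p = 0.0605). Cox8c read 189 and 253, 167 and 199, and 189 and 169 in high FASN, low FASN and control arrays. Cox7b2, which was not tested, read 31.3 and 20.5, 29.1 and 1.09, and 44.2 and 43.2 in the same order. Neither Cox8c nor Cox6b2 was called in any comparison. Cox7a2l, which helps to join complexes III and IV into a supercomplex, read 4877 and 4648 in the high FASN line, 4247 and 4331 in the low FASN line, and 4844 and 4326 in controls. Its brightest probe set was not called, although 2 other Cox7a2l probe sets were called higher in the high FASN line, by 0.21 and 0.23 (limma, adjusted p = 0.0297 and 0.0394).

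The 8 complex IV assembly factors lay mostly below control. All 8 differences from control were below 0 in the low FASN line, and 3 were called lower. In the high FASN line 5 were below 0 and 1 was called lower. Of all probe sets tested, 10.8% were called lower in the low FASN line and 6.18% in the high FASN line. Of all 11498 tested genes, 5498 were below 0 in the low FASN line and 5057 in the high FASN line. The median difference over the 8 factors in the low FASN line was -0.18, against -0.005 over equally bright genes. These genes are dimmer than most members, with a median mean log2 signal of 10.38 over the 8, against 13.98 over all tested members. It was -0.06 in the high FASN line, against 0.00 over equally bright genes. Under the hybridization control scaling none of the 3 calls in the low FASN line stood.

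Cox11, which places copper in the catalytic subunit, was called lower in both lines. It read 1207 and 1239 in the high FASN line, 1425 and 1368 in the low FASN line, and 1660 and 1725 in controls. The 3 groups did not overlap, and high FASN was the lowest. Cox11 fell by 0.46 on the log2 scale in the high FASN line, 0.725-fold of control (limma, adjusted p = 0.00137), and for low FASN it fell by 0.27, 0.827-fold (limma, adjusted p = 0.0114). The call in the high FASN line stood under all 4 other scalings, between -0.55 and -0.45. The lines differed from each other by -0.19, which did not pass (limma, adjusted p = 0.0661).

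Cox10, which makes heme O for the enzyme, read 889 and 1078 in the high FASN line, 655 and 658 in the low FASN line, and 868 and 966 in controls. The low FASN arrays lay below all others, and high FASN overlapped control. Cox10 fell by 0.47 in the low FASN line (limma, adjusted p = 0.00809). Its second probe set was called lower in both lines, by -0.35 for high FASN and -0.40 for low FASN (limma, adjusted p = 0.0361 and 0.013), so the probe sets differ on the high FASN line. Cox17, the copper chaperone for complex IV assembly, read 9929 and 9195 in the high FASN line, 8569 and 8760 in the low FASN line, and 10416 and 9566 in controls. It fell by 0.20 in the low FASN line (limma, adjusted p = 0.0326), and this turned to 0.03 under the hybridization control scaling. Cox15, which turns heme O into heme A, was not called on its brightest probe set, at -0.38 for high FASN (limma, adjusted p = 0.0532), while another of its probe sets was called higher, by 0.52 in the high FASN line and 0.67 in the low FASN line (limma, adjusted p = 0.0133 and 0.00234).

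**Figure D3:**
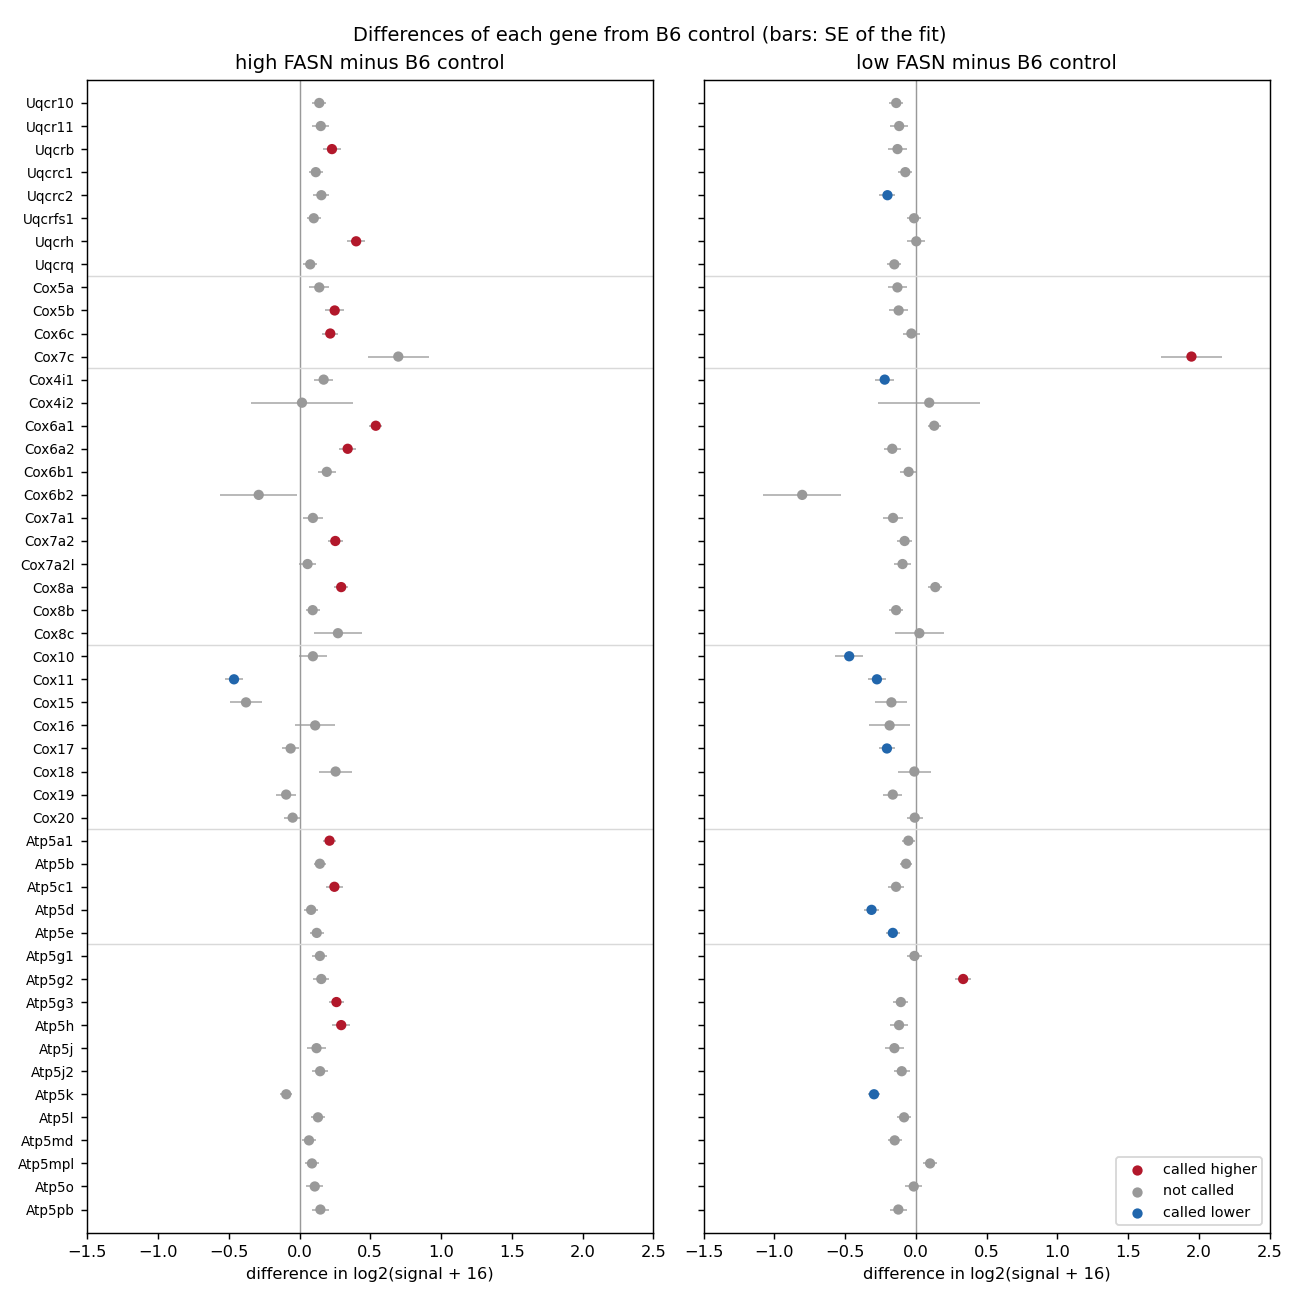
Points are the difference of each tested member from B6 control on the log2(signal + 16) scale, with bars for the standard error of the fit; red points were called higher, blue lower and grey not called. Horizontal lines part the roles, in the order complex III, complex IV without and with tissue forms, assembly factors, F1 and Fo. Cox7c in the low FASN line, at 1.95, lies far outside the span of the others, and the assembly factors Cox10, Cox11 and Cox17 are the blue points of their block.

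The plot of the members' differences also shows the F1 head of the ATP synthase, with 5 genes. In the high FASN line 2 were called higher (Atp5a1 and Atp5c1) and in the low FASN line 2 were called lower (Atp5d and Atp5e), and all 5 were called higher between the lines. Over all probe sets tested, the shares called in those ways were 8.18%, 10.8% and 9.69%. The median difference between the lines over the 5 genes was 0.28, against 0.23 over equally bright genes. Atp5b, the catalytic beta subunit, read 23283 and 22609 in the high FASN line, 19690 and 19915 in the low FASN line, and 20870 and 20669 in controls. The groups did not overlap, but neither line passed against control (limma, adjusted p = 0.0593 for high FASN and 0.296 for low FASN), and the 0.21 between the lines turned to -0.05 under quantile normalization. Atp5d, the delta subunit of the central stalk, read 16019 and 15088 in the high FASN line, 11672 and 11975 in the low FASN line, and 14306 and 15079 in controls. Only the low FASN arrays stood clearly apart. Atp5d fell by 0.31 in the low FASN line (limma, adjusted p = 0.00225), its second probe set by 0.52, and the call stood under quantile, median and loess scaling but not under the hybridization control scaling, at -0.08.

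Fo, the stalk and the other Atp5 genes numbered 12, of which 2 were called higher in the high FASN line and 0 lower, and 1 each way in the low FASN line. These were 16.7% higher for high FASN, against 8.18% of all probe sets tested. For low FASN they were 8.33% each way, against 13.5% higher and 10.8% lower. The median difference over the 12 genes was 0.14 for high FASN and -0.10 for low FASN, against 0.15 and -0.11 over equally bright genes. Atp5g1, Atp5g2 and Atp5g3 encode the same mature c subunit, the proton-carrying ring, with different import sequences. Atp5g2 read 6970 and 6383 in the high FASN line, 7654 and 7478 in the low FASN line, and 6069 and 5921 in controls. The low FASN arrays were the highest and the 3 groups did not overlap. Atp5g2 was 0.33 ± 0.06 (SE) higher in the low FASN line than in control, 1.26-fold (limma, adjusted p = 0.00228), and this call stood under all 4 other scalings, between 0.32 and 0.57. The high FASN difference was 0.15 (limma, adjusted p = 0.102). The lines differed by -0.18 (limma, adjusted p = 0.0493).

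The partners of Atp5g2 moved otherwise in the low FASN line. Atp5g3 read 24319 and 22423 in the high FASN line, 17869 and 18358 in the low FASN line, and 19768 and 19213 in controls. It was called higher in the high FASN line by 0.26 (limma, adjusted p = 0.0101) and was not called in the low FASN line, at -0.11. Atp5g1 read 19894 and 18128 in the high FASN line, 17140 and 17014 in the low FASN line, and 17390 and 16986 in controls, and was not called in any comparison. Within an array, Atp5g2 less Atp5g3 was -1.80 and -1.81 in the high FASN line, -1.22 and -1.29 in the low FASN line, and -1.70 and -1.70 in controls. The low FASN line thus lay above control by 0.44 in this difference and the high FASN line below it by -0.11, untested as for the other pairs.

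Atp5h, the d subunit of the outer stalk, read 29599 and 26222 in the high FASN line, 20389 and 21477 in the low FASN line, and 23184 and 22253 in controls. It was called higher in the high FASN line by 0.29 (limma, adjusted p = 0.0133), and the 3 groups did not overlap. Atp5k, the e subunit that holds ATP synthase dimers together, read 16212 and 16440 in the high FASN line, 14269 and 14132 in the low FASN line, and 17239 and 17618 in controls. Unlike the other Fo genes, its high FASN arrays also lay below control, though only the low FASN difference, -0.30, was called (limma, adjusted p = 0.00133). The other 2 Atp5k probe sets gave 0.14 and 0.15 in the high FASN line and -0.16 and -0.14 in the low FASN line, so the high FASN direction differed between probe sets. The remaining 7 genes of the group were not called against control in either line.

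Brightness moved with these differences. Among genes whose mean log2 signal was 13 or more, 30 of 35 members (85.7%) were called higher in the high FASN line when the lines were compared, and so were 129 of 271 other genes (47.6%). The medians were 0.27 over the members and 0.17 over the other genes. This band has no upper limit, and members and other genes within it were not matched for brightness. With such matching, the median over all 49 tested members was 0.25, against 0.22 over equally bright genes, and 28 members lay above theirs. Against control, 11 of the 35 bright members (31.4%) were called higher in the high FASN line, against 57 of the 271 others (21.0%). In the low FASN line 6 of the 35 (17.1%) were called lower, against 71 of the 271 (26.2%). Those other bright genes were split in a way chosen after the values were seen. The median difference between the lines was 0.22 over 31 genes whose symbol starts with Nduf, a prefix named after complex I. It was 0.24 over 26 cytosolic ribosomal protein genes (Rpl and Rps) and 0.15 over the remaining 214.

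**Figure D4:**
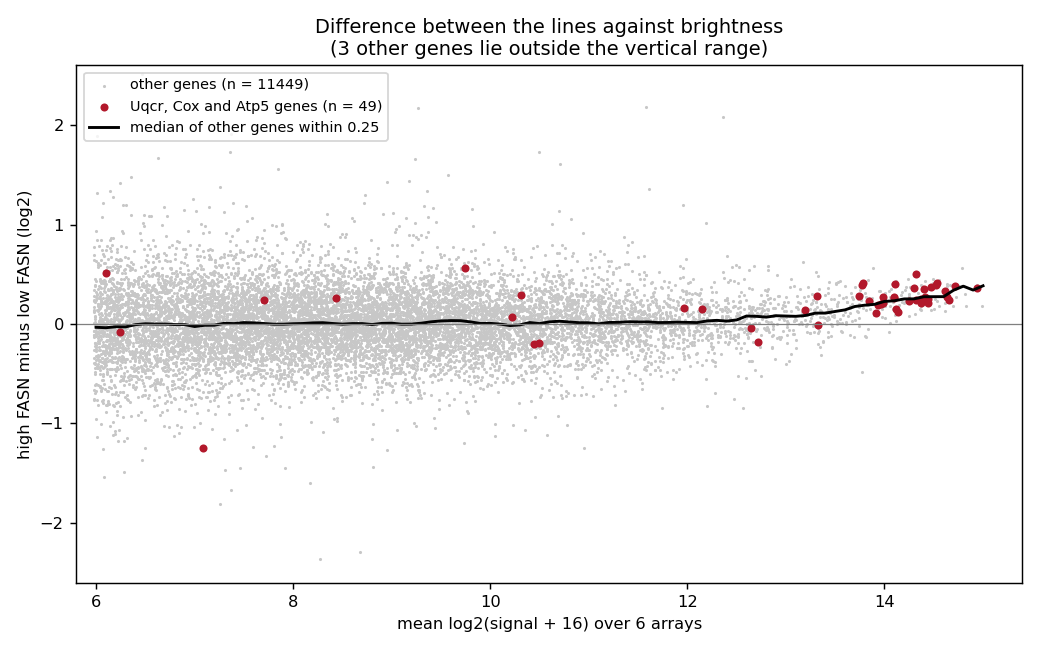
Each point is 1 gene on its brightest tested probe set, with the mean log2(signal + 16) over the 6 arrays across and the difference between the high and low FASN lines upwards; red points are the 49 members and the black line is the running median of the other genes. The running median stays near 0 up to about 12 and rises above it for brighter genes, where 35 of the members lie. Cox7c, the lowest red point, and Cox10 lie away from it.

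Given the trend in the plot of differences by brightness, the members were also read under other scalings. With quantile normalization, which gives all arrays the same distribution of signals, the members' median was 0.02 for high FASN, -0.01 for low FASN and 0.03 between the lines. The counts of members called higher and lower were then 7 and 2, 10 and 4, and 8 and 5 in those comparisons (limma). Scaling to the hybridization controls moved the median of all probe sets tested to -0.05, 0.25 and -0.31 in the same order, and relative to these shifts the members' medians of 0.06, 0.12 and -0.07 lay above, below and above. The share of all calls that were higher became 37.3%, 90.6% and 4.43% under that scaling, against 57.0%, 55.6% and 52.2% with the deposited one.

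**Figure D5:**
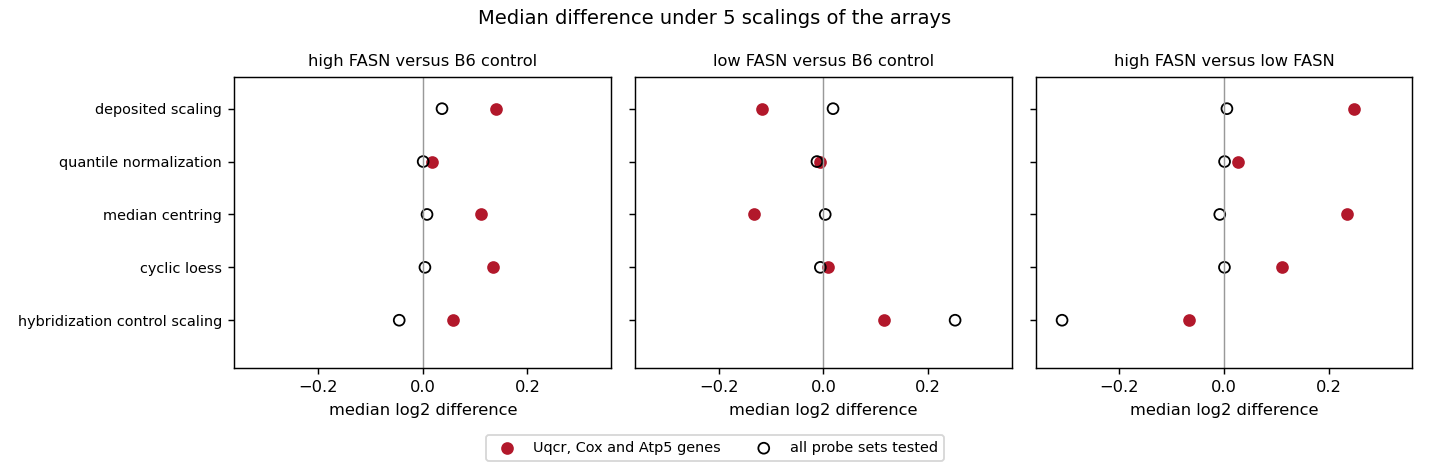
Red points are the median log2 difference over the 49 members and open circles the median over all 22519 probe sets tested, for the deposited scaling and 4 others, in 3 comparisons. The members' median lies at 0.25 between the lines with the deposited scaling, at 0.03 with quantile normalization and at -0.07 with hybridization control scaling.

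Seen across the scalings in the plot of medians, few calls depended on none of them. Under all 4 other scalings the calls that stood were Cox6a1 and Uqcrh (higher) and Cox11 (lower) for high FASN against control, Atp5g2 and Cox7c (higher) for low FASN against control, and Cox7c (lower) between the lines. None of the 8 lower calls in the low FASN line and 0 of the 31 higher calls between the lines stood under all 4. With hybridization control scaling set aside, 4 of the 12 higher calls in the high FASN line stood (Cox6a1, Cox6a2, Cox8a and Uqcrh), 4 of the 8 lower calls in the low FASN line (Atp5d, Atp5k, Cox10 and Cox11) and 7 of the 31 between the lines.

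Single arrays decided some of the calls. Against control, those of Cox6a1, Cox6a2, Uqcrh and Cox11 in the high FASN line and of Cox7c, Atp5g2, Atp5d and Atp5k in the low FASN line stood whichever array was left out, with a largest adjusted p of 0.0451 (limma, for Cox6a2). In the high FASN line, Atp5g3 and Atp5h lost their call without either control array, reaching an adjusted p of 0.0925 and 0.109. Cox8a and Cox7a2 lost theirs without the second control array, at 0.0532 and 0.13. In the low FASN line, Cox10 and Cox11 lost their call without either low FASN array or without the second control array, reaching 0.0723 and 0.0977. Cox17 lost it without either low FASN array or the first control array (0.223), and Cox4i1 without any single one of the low FASN and control arrays (0.249). Between the lines, Cox7c lost its call without the second low FASN array (limma, adjusted p = 0.0534), and Atp5g2 lost its call without any single array other than the first high FASN one (0.249).

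Other probe sets of the same genes gave a further check. For 24 genes, 33 further probe sets were tested, and their sign was that of the brightest one for 24 in high FASN against control, 21 in low FASN against control and 28 between the lines. The brightest one was called for 14, 5 and 26 of these 33. Both were called in the same direction for 5, 4 and 12 of them. They were called in opposite directions for 0, 0 and 1, the last being a dim Atp5c1 probe set. Only the further probe set was called for 5, 6 and 1, so many calls rest on the brightest probe set alone.

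Of 47 other symbols listed for the pathway, 44 were found by that symbol on a single-symbol probe set and 42 were tested. A gene annotated under another symbol is missed by this match. In the high FASN line 3 were called higher and 5 lower, and in the low FASN line 3 higher and 10 lower. Between the lines 13 were called higher in the high FASN line and 3 lower. The shares called higher and lower were 7.14% and 11.9% for high FASN, against 8.18% and 6.18% of all probe sets tested. For low FASN they were 7.14% and 23.8%, against 13.5% and 10.8%, and between the lines 31% and 7.14%, against 9.69% and 8.87%. Atpaf1, which assembles the F1 head, read 3123 and 3211 in the high FASN line, 3174 and 3090 in the low FASN line, and 4410 and 4567 in controls. Both lines lay below control and overlapped each other. Atpaf1 fell by 0.50 in the high FASN line (limma, adjusted p = 0.000328), and for low FASN it fell by 0.52 (limma, adjusted p = 0.000157). Ttc19, an assembly factor of complex III, read 731 and 717 in the high FASN line, 583 and 579 in the low FASN line, and 867 and 898 in controls, and was called lower in both lines, by -0.28 and -0.59.

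Among the regulators of these genes, the coactivators Ppargc1a and Ppargc1b moved in opposite directions in the high FASN line. Ppargc1a read 2599 and 2066 in the high FASN line, 3312 and 3066 in the low FASN line, and 3807 and 3562 in controls, and fell by 0.66 in the high FASN line (limma, adjusted p = 0.00207). Ppargc1b read 2224 and 2149 in the high FASN line, 1564 and 1751 in the low FASN line, and 1545 and 1507 in controls, and was 0.51 higher there (limma, adjusted p = 0.00127). Esrra, the estrogen-related receptor alpha, was called lower in the low FASN line by -0.45 and Gabpa, the DNA-binding subunit of GABP, higher by 0.35 (limma, adjusted p = 0.00166 and 0.00377). Cyc1, the cytochrome c1 of complex III that the name rule leaves out, was called lower in the low FASN line by -0.29, and Hccs, which attaches heme to it, lower in the high FASN line by -0.23 (limma, adjusted p = 0.00188 and 0.0302).

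The Nduf genes, taken by a symbol prefix named after complex I, and the mitochondrial ribosomal protein genes (Mrpl and Mrps) gave a comparison by name. Of 43 tested Nduf genes, 5 were called higher and 0 lower in the high FASN line, 1 higher and 8 lower in the low FASN line, and 23 higher and 0 lower between the lines. Of 76 Mrpl and Mrps genes, 2 were called higher and 6 lower in the high FASN line, 5 higher and 32 lower in the low FASN line, and 21 higher and 1 lower between the lines. The shares of all probe sets called higher and lower were 8.18% and 6.18%, 13.5% and 10.8%, and 9.69% and 8.87% in the same order. The families' median differences were 0.07, -0.12 and 0.19 for Nduf and -0.05, -0.17 and 0.12 for Mrpl and Mrps. Over equally bright genes the medians were 0.09, -0.09 and 0.16 beside Nduf, and -0.01, -0.05 and 0.02 beside Mrpl and Mrps. No difference between these families and the members was tested.

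Markers of cell types moved as well. Over all probe sets tested, 8.18% were called higher in the high FASN line and 13.5% in the low FASN line. All 10 heart muscle markers were tested, and 8 were called higher in the high FASN line, with summed signals of 284437 and 255930 there, 208014 and 212183 in the low FASN line, and 229000 and 222260 in controls. These markers are bright, and their median difference for high FASN was 0.25, against 0.21 over equally bright genes. For low FASN both medians were -0.12. The brown fat list had 8 genes on the arrays and 4 tested, of which 3 were called higher in the high FASN line and 2 in the low FASN line. Its sums were 3996 and 3921, 2173 and 2109, and 1563 and 1505 in high FASN, low FASN and control arrays. Ucp1, which defines brown fat, read 846 and 799 in the high FASN line, 185 and 232 in the low FASN line, and 6.23 and 10.3 in controls, while Elovl3, Zic1, Otop1 and Lhx8 were too dim to be tested.

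The white fat list had 6 of 8 genes on the arrays and 5 tested, of which 4 were called higher in the high FASN line and 3 in the low FASN line, with sums of 43342 and 39790, 32090 and 32919, and 21605 and 21216. Airway and lung markers were called higher for 4 of 5 tested in the high FASN line and 1 in the low FASN line, with sums of 3018 and 3210, 256 and 238, and 163 and 190. Skeletal muscle markers, a tissue that shares Cox6a2, Cox7a1 and Cox8b with the heart, summed to 21274 and 19242, 15523 and 15600, and 18684 and 18124, almost all of it Ckm, which heart also makes; Myh4, Myh2 and Tnnt3 were too dim to be tested. The part of other cell types in the members' differences was not tested.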

How the data were processed

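The values deposited by the authors are linear intensities, 1 for each probe set on each array. The submitters' processing notes name GCOS; its version and its target for scaling were not given in the sources used here. As deposited, the scaling was kept, since all trimmed means were 300.002. The deposited intensities were analysed as log2(signal + 16). Of 45101 probe sets, 64 were controls, and 34945 had 1 symbol in the annotation supplied, 932 several and 9160 none. Probe sets at or above the median of their mean were tested (22519). One model with 3 group means over all 6 arrays was fitted in R 4.3.3 with limma 3.58.1 (lmFit, and eBayes with trend = TRUE, which gave 6.43 prior beside 3 residual degrees of freedom), two-sided, with Benjamini-Hochberg adjustment, and was tested on simulated data. Figures were drawn with Python 3.11.15 and matplotlib 3.10.9.

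The members, the gene lists and the tests were chosen with earlier results of these data known. Values on every array are given for the 6 largest called rises and 6 largest called falls of each comparison, the tissue forms and 3 core subunits; other members are given by counts. Deviations of arrays with the same replicate number correlated at 0.0004 to 0.04 between groups, and no label says that a number pairs samples. Promoter windows came from the RefSeq table of GRCm38.p6. Detection calls were not used here, so only the intensity itself tells dim probe sets.

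Marker lists not described above gave, in the high and then the low FASN line against control, 5 and 6 of 7 fibroblast, 3 and 2 of 5 endothelial, 4 and 4 of 4 smooth muscle and 0 and 2 of 4 macrophage genes called higher, with 1 endothelial gene called lower in the low FASN line. The heart muscle list had 1 call each way in the low FASN line, and the skeletal muscle list 1 higher call in the high and 1 lower call in the low FASN line among 3 tested.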

Additional observations from a re-analysis of the deposited data

Results flagged for a closer look

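For 19 members the difference of the high FASN line from control and that of the low FASN line from control were not the same, by limma's test of the difference itself (the high minus the low FASN line), and at least 1 of the 2 lines was also called against control. This second condition was added after the values were seen, and keeps apart members called between the lines with neither line called against control. The share of all probe sets that met both conditions is not given here. By the call between the lines alone, 9.69% of all probe sets tested were higher and 8.87% lower. Among non-member genes with a mean log2 signal of 13 or more, 47.6% were called higher between the lines. The high minus low FASN difference on the log2 scale was 0.36 for Uqcrb, 0.35 for Uqcrc2 and 0.40 for Uqcrh in complex III. In complex IV it was 0.39 for Cox4i1, 0.37 for Cox5b, 0.41 for Cox6a1, 0.51 for Cox6a2, 0.25 for Cox6c, 0.33 for Cox7a2 and -1.25 for Cox7c, and 0.56 for the assembly factor Cox10. In the ATP synthase it was 0.26 for Atp5a1, 0.39 for Atp5c1, 0.39 for Atp5d, 0.28 for Atp5e, -0.18 for Atp5g2, 0.37 for Atp5g3, 0.41 for Atp5h and 0.20 for Atp5k.

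Among these flagged members, the 2 negative values, Atp5g2 and Cox7c, were those in which the low FASN line was the highest group. Of these 2, the Cox7c difference remained called under all 4 other scalings. For comparison, the median of the same difference was 0.22 over genes outside the family as bright as the 49 tested members, not as the flagged ones alone. Groups of 2 arrays are too small for a check for outlying arrays.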

How the results depend on the processing

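The scaling of the arrays changed counts, medians and directions. Under quantile normalization 7 members were called higher and 2 lower for high FASN against control (median 0.017), 10 and 4 for low FASN against control (median -0.0062), and 8 and 5 between the lines (median 0.027). The turned values listed here are those of members with values given on every array and with a call before or after. Quantile normalization turned Atp5g1 to 0.11 and Uqcrfs1 to 0.11 (low FASN against control), and, between the lines, Atp5b to -0.053, Atp5g1 to -0.11, Atp5k to -0.0056, Cox6b1 to -0.070, Cox7a1 to -0.025, Cox8b to -0.031 and Uqcrc1 to -0.035. Further members turned between the lines as well, among them Atp5md at -0.069 and Cox6c at -0.061. Under median centring the counts were 4 and 2 for high FASN against control, 4 lower for low FASN against control, and 16 and 1 between the lines. Cyclic loess gave 22 higher for high FASN, 7 higher and 4 lower for low FASN (median 0.0095, with Atp5g1 at 0.12 and Uqcrfs1 at 0.11), and 17 higher between the lines (median 0.11).

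Hybridization control scaling gave 2 and 2 for high FASN (median 0.058), 5 and 0 for low FASN (median 0.12, with Cox17 at 0.029 and Cox4i1 at 0.014), and 0 and 6 between the lines (median -0.067). Among the members with values given on every array, it turned Atp5b to -0.10, Atp5k to -0.11, Cox6b1 to -0.072, Cox7a1 to -0.060, Cox8b to -0.083 and Uqcrc1 to -0.13 between the lines. Further called members turned there as well, among them Atp5a1 at -0.051 and Cox6c at -0.067. The cause of these changes was not tested.

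Without a filter on dim probe sets 6 were called higher for high FASN, 4 lower for low FASN and 1 lower between the lines, and a filter at the lower quartile left 1 lower between the lines. Without the variance trend 1 was called higher for high FASN, 1 higher and 0 lower for low FASN, and 2 higher and 1 lower between the lines. With only the 4 arrays compared, 4 were higher and 23 lower for low FASN, and 1 was lower between the lines. The mean of a gene's probe sets gave 7 higher for high FASN (Cox8a at -0.026), and 5 lower for low FASN (median -0.083). With 1 probe set per gene tested, 2 were lower for high FASN. The replicate numbers did not pair the samples; with the replicate number as a block, 14 were higher and 2 lower for high FASN, 2 higher and 9 lower for low FASN, and 31 and 2 between the lines.

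Leaving out each array in turn, where the lone array of a group is assumed to vary like the others, gave 3 to 31 higher, 1 to 2 lower and a median of 0.077 to 0.213 for high FASN. It gave 2 to 4 higher, 2 to 24 lower and a median of -0.15 to -0.09 for low FASN. Between the lines it gave 9 to 35 higher, 0 to 2 lower and a median of 0.18 to 0.31. The 12 higher calls for high FASN became 31 without its second array, 5 without the first and 3 without the second control array. The 8 lower calls for low FASN became 23 and 24 without the first and the second high FASN array, 2 without either low FASN array, and 4 and 3 without the first and the second control array. The 31 higher calls between the lines became 9 and 13 without the first and the second low FASN array. Among the named members, single values kept their direction and side of the threshold in 1204 cases, changed sign without a call before or after in 70, lost the call in 134, gained one in 54 and turned with a call on at least 1 side in 20. With 2 arrays per group and no detection calls, dim probe sets such as those of Cox7c, Cox6b2 and Cox4i2 limit what can be read.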

Other observations

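A second, dim Atp5c1 probe set read 66.2 and 29.9 in the high FASN line, 134 and 136 in the low FASN line, and 33.4 and 43.5 in B6 controls. Its difference between the low FASN line and control was 1.48 (limma, adjusted p = 0.00587) and that between the high and low FASN lines -1.30 (limma, adjusted p = 0.015), the opposite call to the bright Atp5c1 probe set, which gave 0.39 between the lines. Like Cox7c, it was highest on the low FASN arrays. A second Atp5o probe set was called lower in the high FASN line by -0.30 (limma, adjusted p = 0.00551), where the brightest one gave 0.11 without a call, and a second Cox6c probe set was called higher in both lines, by 0.45 for high FASN and 0.27 for low FASN (limma, adjusted p = 0.00137 and 0.0105).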
